A study of Mus musculus with 24 samples.

Results

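The 8 genes described here encode the liver X receptors, their obligate partner and the cholesterol efflux machinery under their control. They were taken by gene symbol from a named list: the receptor genes Nr1h3 (LXRα), Nr1h2 (LXRβ) and Rxra (RXRα), the transporter genes Abca1 and Abcg1, the apolipoprotein gene Apoe, and the feedback and membrane lipid genes Mylip and Lpcat3. All 8 were found among the 54429 gene symbols of the deposited tables, and all 8 were among the 12797 genes with enough counts to test. The libraries came from macrophages grown with M-CSF at 10 ng/ml from the bone marrow of C57BL/6N mice that lacked MAPKAP kinase-2 (MK2 KO) or carried it (MK2 WT). Cells were replated on day 7 and harvested 24 h after receiving IL-4 at 10 ng/ml (M2) or no stimulus (M0). There were 6 libraries in each of 4 groups, KO M2, KO M0, WT M2 and WT M0, so 24 in all. MK2 is a kinase switched on by p38, known for its control of messenger RNAs with AU-rich elements. The labels give neither the deleted segment of the MK2 gene nor the age of the mice, and they do not say which replicates, if any, share an animal. The p-values therefore speak only of the scatter among these libraries, which may be technical.

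Liver X receptors are nuclear receptors activated by oxysterols and by the sterol intermediate desmosterol. They bind DNA as heterodimers with RXR, at paired half-sites spaced by 4 bases (DR4 elements), and hold target genes repressed through corepressors until a ligand arrives. In macrophages their classical targets include Abca1 and Abcg1, which export cholesterol to lipid-poor apolipoprotein and to HDL particles, and Apoe, a secreted acceptor of that cholesterol. Mylip (also called Idol), a ubiquitin ligase that restrains lipoprotein uptake, and Lpcat3, which puts polyunsaturated acyl chains into phospholipids, are further targets. IL-4 is used to drive alternative activation, a state in which the related receptor PPARγ, also a partner of RXR, is induced.

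In the GENCODE M21 annotation of mm10 all 8 are protein-coding genes. Nr1h3 lies at chr2:91184061-91202834 on the minus strand, Nr1h2 at chr7:44549616-44553951 on the minus strand and Rxra at chr2:27676440-27762957 on the plus strand. Abca1 is at chr4:53030787-53159895 (minus), Abcg1 at chr17:31057675-31117988 (plus) and Apoe at chr7:19696109-19699188 (minus). Mylip is at chr13:45389742-45412022 (plus) and Lpcat3 at chr6:124663027-124704418 (plus). The exons of Lpcat3 overlap those of Emg1 on the opposite strand over 334 of 3268 bases (10.2%), and those of Nr1h3 overlap Gm13783 on the same strand over 34 of 2515 bases (1.35%). The sources used here do not give the strand setting of the counting, and counts of these 2 genes are uncertain to that extent.

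The promoters of Abca1, Mylip and Apoe are shown because these were the 3 LXR targets among the 4 genes that passed as lower in KO M2 than in WT M2 (the other was the receptor gene Rxra). Each sequence holds the 250 bases before a start site in RefSeq on GRCm38.p6 (the same coordinates as mm10), read 5′ to 3′ along the gene. They cover chr4:53159896-53160145 (minus strand) for Abca1, chr13:45389492-45389741 (plus strand) for Mylip and chr7:19699189-19699438 (minus strand) for Apoe, and capitals mark the motif matches described next.
Abca1: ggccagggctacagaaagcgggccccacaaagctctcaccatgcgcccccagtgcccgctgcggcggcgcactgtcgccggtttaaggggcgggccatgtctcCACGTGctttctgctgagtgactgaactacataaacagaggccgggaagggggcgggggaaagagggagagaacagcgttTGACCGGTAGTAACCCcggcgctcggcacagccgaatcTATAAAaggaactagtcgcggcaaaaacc
Mylip: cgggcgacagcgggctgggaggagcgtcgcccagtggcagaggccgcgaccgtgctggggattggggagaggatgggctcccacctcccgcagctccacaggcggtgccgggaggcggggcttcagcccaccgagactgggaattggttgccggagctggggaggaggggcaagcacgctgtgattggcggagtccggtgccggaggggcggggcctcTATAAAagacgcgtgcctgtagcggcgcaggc
Apoe: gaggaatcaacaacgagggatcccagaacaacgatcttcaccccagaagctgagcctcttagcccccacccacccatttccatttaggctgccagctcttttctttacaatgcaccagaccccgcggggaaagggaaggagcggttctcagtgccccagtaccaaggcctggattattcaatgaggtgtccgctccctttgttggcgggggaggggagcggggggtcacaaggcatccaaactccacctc
Both strands were searched. The first run of capitals in Abca1 is the E-box CACGTG, 147 to 142 bases before the start, a match that 6.02% of 32851 promoters of this length held. The second is a relaxed DR4 element, NGGTNANNNNNGGTCA, matched as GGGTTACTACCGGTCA on the opposite strand 67 to 52 bases before the start. The relaxed motif leaves open exactly the half-site letters at which this Abca1 stretch departs from AGGTCA. It was present in 58 of the 32851 promoters (0.177%), but with letters opened in this way that share gives no support to the match. The last run is a TATA box, TATAAA, 29 to 24 bases before the start, and Mylip held the same letters 32 to 27 bases before its start. TATAAA was present in 12.4% of promoters. The strict DR4 element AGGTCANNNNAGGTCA, present in 5 promoters (0.0152%), was in none of those found for the 8 genes, and the Apoe promoter shown had no match to any of the 4 motifs. Promoters were matched for 7 of the 8 genes, all but Abcg1.

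Total counts ran from 7893809 to 13492507 per library. The transcript of the MK2 gene, Mapkapk2, was present in all 24 libraries at lower levels in knockout, with 47.8 to 60.7 CPM (library-scaled counts) in KO M2 and 54.7 to 63.4 CPM in KO M0, against 113 to 139 CPM in WT M2 and 100.3 to 138 CPM in WT M0. The 10 macrophage identity markers were all measured, with summed levels of 11686 to 13954 CPM in KO M2, 12729 to 15469 in KO M0, 14254 to 18296 in WT M2 and 14640 to 19795 in WT M0. Markers of stromal cells and fibroblasts, 15 genes with none at 0, separated the genotypes. Their summed level was 10.8 to 25.7 CPM in KO M2 and 11.7 to 33.5 CPM in KO M0, against 135 to 193 CPM in WT M2 and 143 to 233 CPM in WT M0. All 13 of these markers that were tested were lower in knockout, with and without IL-4. In bulk RNA, fewer cells of a type and less RNA per cell cannot be told apart. Replicates 1 to 3 and 4 to 6 of each group carry different runs of library numbers in the labels, and 3 libraries (WT M0 replicate 3, WT M2 replicate 2 and KO M2 replicate 2) are numbered apart from both runs.

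IL-4 raised Abcg1 by more than 1.5-fold in both genotypes, lowered Mylip to between 72.2% and 76.6% of its M0 level and raised Lpcat3 slightly, and the loss of MK2 left Apoe at little more than 50% of its WT level in both states. Changes were tested with edgeR's quasi-likelihood test and Benjamini-Hochberg adjustment over all 12797 genes, with an adjusted p below 0.05 as the threshold. IL-4 changed 4 of the 8 genes in KO cells, where 23.6% of all genes passed, and 3 of the 8 in WT cells, where 16.4% passed. Knockout changed 4 of the 8 with IL-4, all lower, against 4.59% of all genes in either direction and 3.09% lower. Without IL-4 it changed 2 of the 8, both lower, against 4.52% of all genes in either direction and 3.42% lower. The IL-4 response did not pass a test of its difference between KO and WT in any of the 8 genes (adjusted p = 1 for each), and 0% of the 12797 genes passed it in edgeR. At an unadjusted p below 0.05, 390 genes differed there, none of the 8 among them, and DESeq2 called 1 gene.

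**Figure D1:**
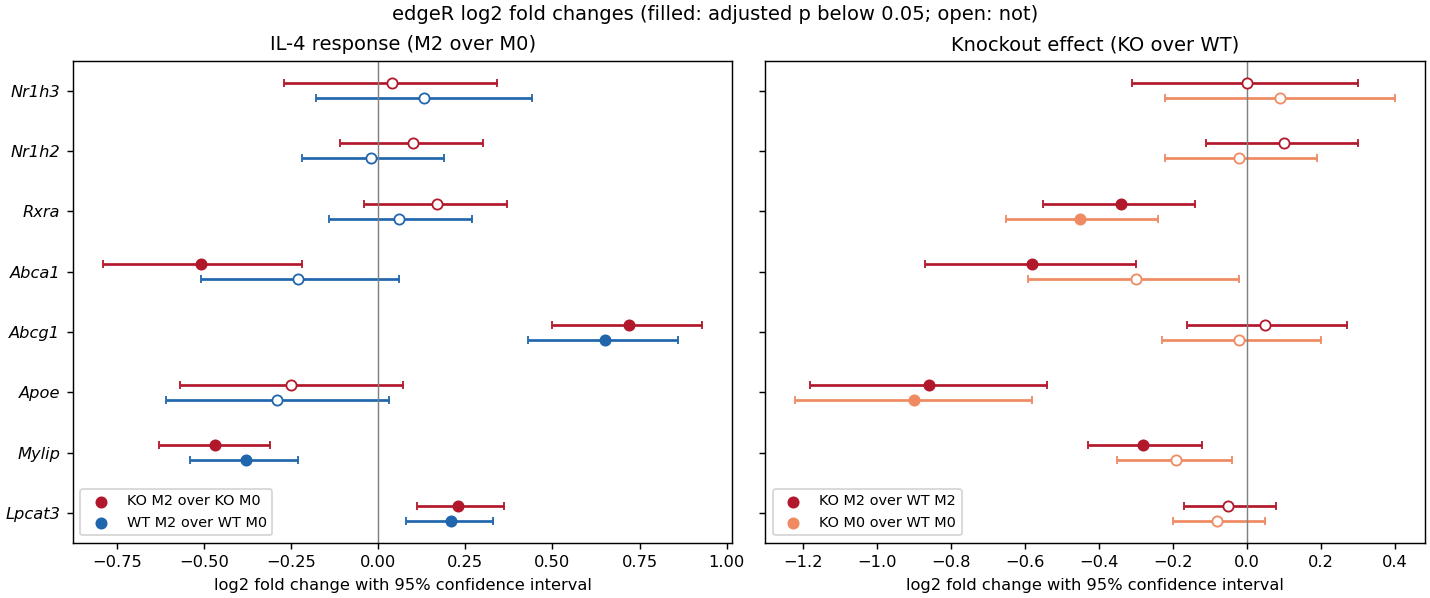
Log2 fold changes of the 8 genes with 95% confidence intervals from edgeR, for the IL-4 response (M2 over M0, left) and the knockout effect (KO over WT, right). Filled points passed an adjusted p of 0.05. Abcg1 lies to the right of 0 in both genotypes after IL-4, and Apoe lies furthest to the left in both states after knockout.

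None of the 3 receptor genes passed the IL-4 test in either genotype, and Rxra alone of them passed as lower in knockout. Rxra, the shared partner of many nuclear receptors, had 59.9 to 87.3 CPM (median 83.4) in KO M2 and 56.3 to 80.9 CPM (median 72.2) in KO M0. WT M2 libraries held 88.5 to 121 CPM (median 94.5) and WT M0 libraries 87.5 to 102 CPM (median 95.7). Every KO library lay below every WT library of the same state. This separation was seen in 2.54% of all genes with IL-4 and 2.5% without, counting lower genes. Rxra fell by 0.45 on the log2 scale without IL-4 (SE 0.10, adjusted p = 0.00589), to 73.4% of the WT level. With IL-4 it fell by 0.34 (SE 0.10, adjusted p = 0.0451), to 78.7%. The call with IL-4 was lost on leaving out any 1 of 9 of the 12 libraries compared, KO M2 replicates 1, 2, 3, 5 and 6 and WT M2 replicates 1, 2, 4 and 6 (adjusted p between 0.0519 and 0.137), and without the 3 libraries numbered apart (log2 fold change -0.30, adjusted p = 0.132). It was also lost with no count filter (adjusted p = 0.0517), with only the 2 groups fitted (adjusted p = 0.0611), and in replicates 4 to 6 alone (adjusted p = 0.28). The IL-4 response of Rxra did not pass in KO (0.17, interval -0.04 to 0.37) or in WT (0.06, interval -0.14 to 0.27).

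Nr1h3, the LXR isotype that is abundant in macrophages and liver, ranged from 43.0 to 72.0 CPM (median 58.0) in KO M2, 38.0 to 74.0 (median 57.9) in KO M0, 50.3 to 75.6 (median 56.1) in WT M2 and 47.3 to 57.1 (median 53.9) in WT M0. All groups overlapped. The KO M0 libraries spread most, with an SD of 16.0 CPM against 4.04 CPM in WT M0. Its IL-4 response was 0.04 in KO (interval -0.27 to 0.34) and 0.13 in WT (interval -0.18 to 0.44). Its knockout effect was 0.00 with IL-4 (interval -0.31 to 0.30) and 0.09 without (interval -0.22 to 0.40). Nr1h2, the more widely expressed isotype, had 44.4 to 60.7 CPM (median 46.2) in KO M2, 39.7 to 52.6 (median 44.8) in KO M0, 39.0 to 61.2 (median 42.4) in WT M2 and 41.5 to 54.6 (median 45.4) in WT M0. Its groups overlapped as well, and its 4 changes lay between -0.02 and 0.10 on the log2 scale. Nr1h3 made up a mean share of the length-scaled LXR level of 43.6 ± 5.26% in KO M2, 43.9 ± 5.89% in KO M0, 45.4 ± 2.35% in WT M2 and 42.9 ± 2.53% in WT M0 (SD, n = 6 each).

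**Figure D2:**
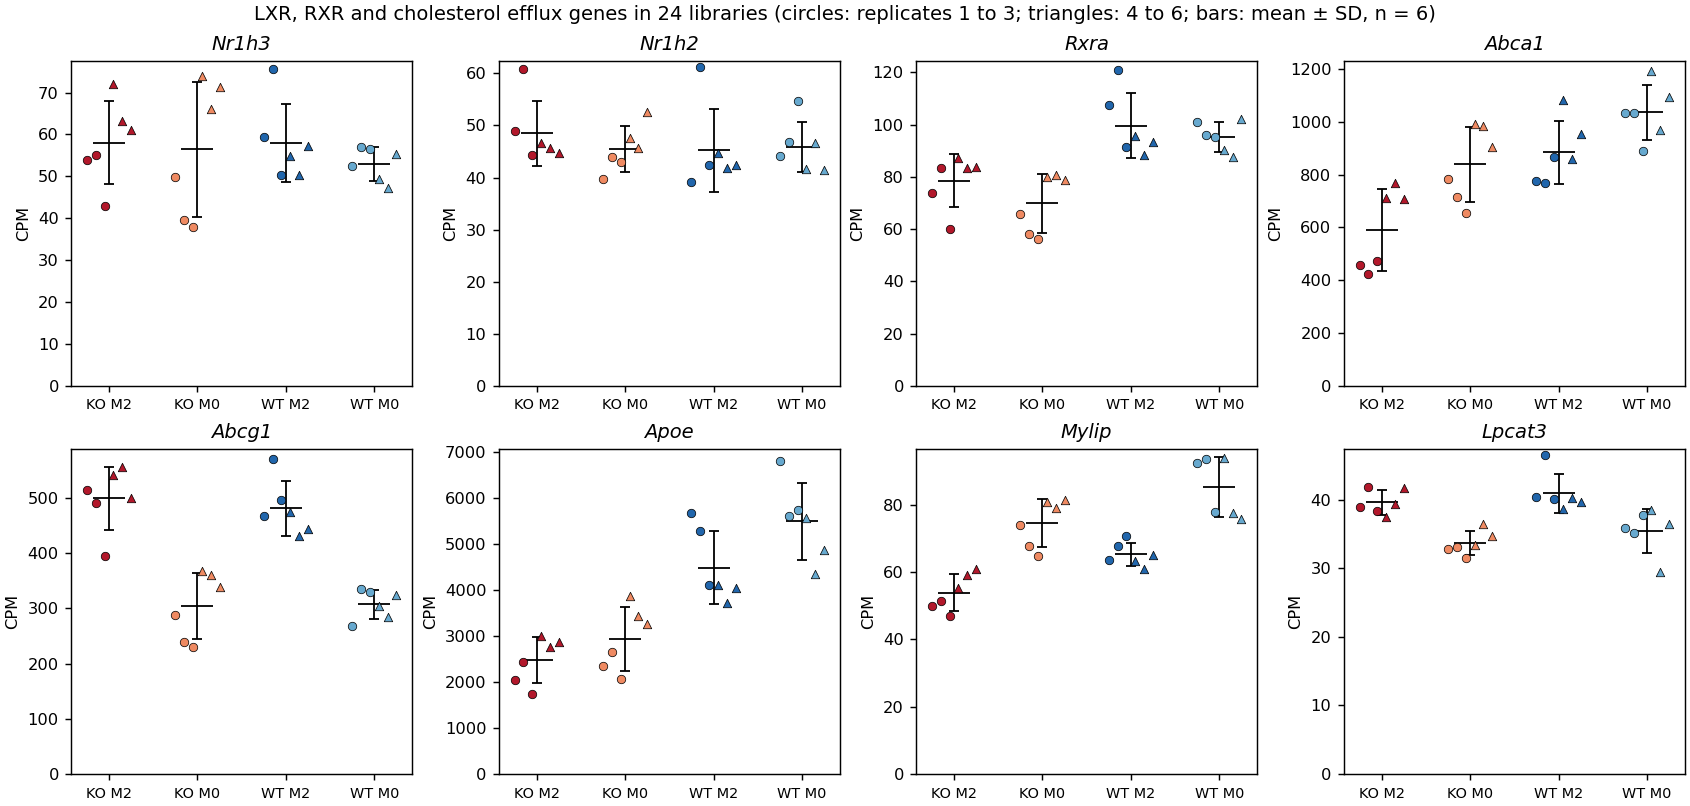
Level of each gene in CPM in every library, by group, with circles for replicates 1 to 3, triangles for replicates 4 to 6, and bars for the mean ± SD of 6 libraries. Apoe and Rxra are separate between KO and WT in both states, and Abcg1 and Mylip are separate between M2 and M0 in both genotypes.

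The transporter genes took different courses after IL-4. Abcg1, which moves cholesterol to HDL particles, had 395 to 557 CPM (median 507) in KO M2 against 231 to 367 CPM (median 313) in KO M0. In WT it had 432 to 572 CPM (median 471) in M2 against 268 to 335 CPM (median 314) in M0. Each M2 library lay above every M0 library of its genotype, as in 8.17% of all genes in KO and 4.75% in WT. The rise was 1.64-fold in KO (interval 1.41 to 1.91, adjusted p = 1.15e-05) and 1.56-fold in WT (interval 1.35 to 1.82, adjusted p = 8.22e-05). The difference between the genotypes' responses was 0.07 on the log2 scale (interval -0.24 to 0.38). Abcg1 did not pass the knockout test with IL-4 (0.05, interval -0.16 to 0.27) or without (-0.02, interval -0.23 to 0.20).

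Abca1, which loads cholesterol onto lipid-poor apolipoprotein, was lowest in KO M2. It had 423 to 769 CPM (median 591) in KO M2, 655 to 992 (median 844) in KO M0, 768 to 1082 (median 864) in WT M2 and 890.3 to 1192 (median 1034) in WT M0. In KO, 3 of the 6 M2 libraries lay below every M0 library, and 5 of the 6 KO M2 libraries lay below every WT M2 library. IL-4 lowered Abca1 in KO, by 0.51 on the log2 scale (SE 0.14, adjusted p = 0.00863). In WT its change was -0.23 (SE 0.14, adjusted p = 0.292). The difference between these responses was -0.28 (interval -0.68 to 0.13), which did not pass. Knockout lowered Abca1 with IL-4, to 66.8% of the WT level (interval 54.7% to 81.5%, adjusted p = 0.0113), and without IL-4 its level was 81.0% of WT (adjusted p = 0.292). With a term for the runs of library numbers, Abca1 also passed for IL-4 in WT (-0.24, adjusted p = 0.0426) and for knockout without IL-4 (-0.34, adjusted p = 0.0115). It passed for IL-4 in WT, too, with a block for the number that an M0 and an M2 library share in the labels (-0.23, adjusted p = 0.0202). Both calls made without a term or block were lost when only the 2 groups compared were fitted (adjusted p = 0.0507 for IL-4 in KO and 0.0599 for knockout with IL-4).

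The balance of the transporter transcripts followed from these changes. On the length-scaled GETMM values, the ratio of Abca1 to Abcg1 was 0.414 ± 0.086 in KO M2 and 0.975 ± 0.041 in KO M0, against 0.655 ± 0.121 in WT M2 and 1.19 ± 0.161 in WT M0 (SD, n = 6 each). The ratio ran from 0.303 to 0.498 in KO M2 and from 0.939 to 1.05 in KO M0, and from 0.472 to 0.803 in WT M2 and from 0.951 to 1.38 in WT M0. M2 and M0 libraries did not overlap in either genotype, whereas KO and WT libraries overlapped in both states.

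Apoe, the secreted apolipoprotein, showed the largest knockout effect of the 8 genes. It had 1738 to 3007 CPM (median 2598) in KO M2 against 3713 to 5680.0 CPM (median 4111) in WT M2. Without IL-4 it had 2059.5 to 3875 CPM (median 2951) in KO M0 against 4351 to 6815 CPM (median 5591) in WT M0. The highest KO library was below the lowest WT library in both states, as in 2.54% of all genes with IL-4 and 2.5% without. Apoe fell to 55.2% of the WT level with IL-4 (interval 44.2% to 68.8%, adjusted p = 0.000659) and to 53.5% without (interval 42.9% to 66.8%, adjusted p = 0.000378). These calls held under every alternative run. The IL-4 response of Apoe was -0.25 in KO (SE 0.15, adjusted p = 0.285) and -0.29 in WT (SE 0.15, adjusted p = 0.217), and neither passed. With a block for the number that an M0 and an M2 library share in the labels, both passed (-0.24 with adjusted p = 0.00266 in KO and -0.30 with adjusted p = 0.000687 in WT). Within replicates 4 to 6 alone both passed as well (-0.30 with adjusted p = 0.0165 in KO and -0.32 with adjusted p = 0.0181 in WT).

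The lower Apoe, Abca1, Rxra and Mylip levels in knockout lay beside the lower stromal marker levels given above, and the part of those markers in the result was not tested. Some genes of 3 other marker lists also passed. Of the 10 macrophage identity genes, 1 was higher and 2 were lower in knockout with IL-4, and 1 was higher and 3 were lower without; their sums, given above, did not overlap between KO M2 and WT M2. Of 3 erythroid or megakaryocyte genes tested, 2 were lower in knockout with IL-4 (median -1.08) and 1 without (median -0.72). All 8 genes listed for these cells, of which the 5 red cell genes had only 1 to 102 counts over the 24 libraries, summed to 80.1 to 149 CPM in KO M2 against 127 to 178 CPM in WT M2. Without IL-4 the sums were 123 to 142 CPM in KO M0 against 99.97 to 191 CPM in WT M0. Of 7 osteoclast genes tested, 2 were higher in knockout with IL-4 and 1 without, and the summed level of that list overlapped between KO and WT in both states. The part of these lists was not tested either.

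**Figure D3:**
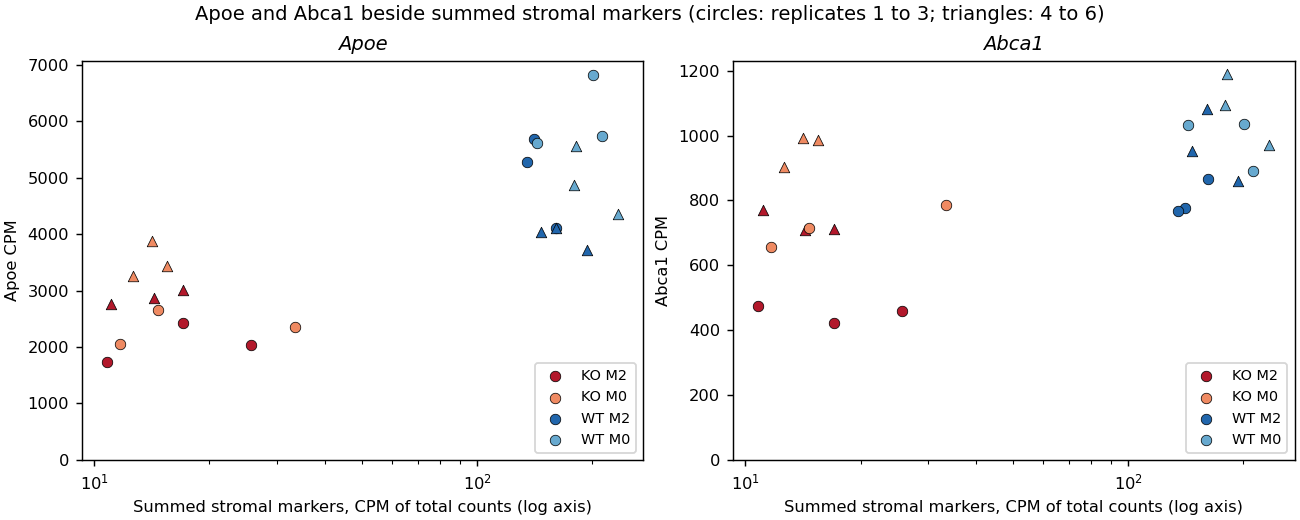
Apoe (left) and Abca1 (right) in CPM against the summed level of 15 stromal markers in CPM (log axis), with 1 point per library, circles for replicates 1 to 3 and triangles for replicates 4 to 6. KO libraries sit between 10.8 and 33.5 CPM of stromal markers and WT libraries between 135 and 233.

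Mylip, whose product restrains lipoprotein uptake, moved opposite to Abcg1 after IL-4. It had 47.0 to 60.8 CPM (median 53.3) in KO M2 against 64.7 to 81.5 CPM (median 76.6) in KO M0. In WT it had 61.0 to 70.8 CPM (median 64.3) in M2 against 75.9 to 94.0 CPM (median 85.2) in M0. The M2 libraries lay below the M0 libraries without overlap in each genotype, as in 5.82% of all genes in KO and 3.41% in WT. Mylip fell to 72.2% of its M0 level in KO (adjusted p = 3.93e-05) and to 76.6% in WT (adjusted p = 0.000648). Knockout lowered it in M2 cells by 0.28 on the log2 scale (SE 0.08, adjusted p = 0.0313). The groups again did not overlap, as in 2.54% of all genes, counting lower genes. Its value without IL-4 was -0.19 (SE 0.08, adjusted p = 0.187). The call with IL-4 was lost on leaving out any 1 of 6 of the 12 libraries, KO M2 replicates 1, 2 and 3 and WT M2 replicates 2, 3 and 6 (adjusted p between 0.0533 and 0.0992), and without the 3 libraries numbered apart (-0.25, adjusted p = 0.0926). It was also lost with no count filter (adjusted p = 0.0677) and in replicates 4 to 6 alone (adjusted p = 0.448).

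Lpcat3 showed a small rise with IL-4 in each genotype. It had 37.4 to 41.8 CPM (median 39.1) in KO M2 against 31.5 to 36.5 CPM (median 33.3) in KO M0. In WT it had 38.7 to 46.5 CPM (median 40.2) in M2 against 29.4 to 38.4 CPM (median 36.1) in M0. Every M2 library lay above the M0 range of its genotype, as in 8.17% of all genes in KO and 4.75% in WT. The rise was 1.18-fold in KO (interval 1.08 to 1.28, adjusted p = 0.00602) and 1.15-fold in WT (interval 1.06 to 1.26, adjusted p = 0.0213). The WT call was lost without WT M0 replicate 5 (adjusted p = 0.0591) or without WT M2 replicate 2 (adjusted p = 0.0632), with no count filter (adjusted p = 0.0721), with only the 2 groups fitted (adjusted p = 0.0803), and in replicates 1 to 3 or 4 to 6 alone (adjusted p = 0.149 and 0.175). The KO call was lost in those sets alone as well (adjusted p = 0.0611 and 0.183). Knockout effects were -0.05 with IL-4 and -0.08 without, and did not pass. Beside these IL-4 responses, the summed osteoclast markers were higher in M2, at 1908 to 2742 CPM in KO M2 against 1025 to 1550 CPM in KO M0, and 2090.1 to 2738 CPM in WT M2 against 1343 to 2049 CPM in WT M0. Of the 9 osteoclast genes, Atp6v0d2 held 412721 counts over all libraries and the next, Nfatc1, held 11791. Of 7 tested, 5 were higher with IL-4 in each genotype, and their part in the responses was not tested.

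On GETMM values, which scale for transcript length, Apoe stood far above the other 7 genes in every group. It averaged 4893 ± 958 in KO M2, 5882 ± 1379.6 in KO M0, 8905 ± 1598 in WT M2 and 10840.1 ± 1619 in WT M0 (SD, n = 6 each). The transporters came next, and neighbours in this order are said to overlap where their means ± SD do. Abcg1 led Abca1 after IL-4, at 244 ± 26.4 against 101 ± 26.0 in KO M2 and 235 ± 24.9 against 152 ± 20.1 in WT M2. Without IL-4 they overlapped, at 150.0 ± 29.5 for Abcg1 and 146 ± 24.5 for Abca1 in KO M0, and 149.6 ± 13.8 and 177 ± 15.9 in WT M0. The LXR genes followed, with Nr1h2 at 68.3 to 73.0 and Nr1h3 at 51.6 to 56.7 over the group means, overlapping in every group but WT M0. Rxra, Mylip and Lpcat3 were lowest, between 28.9 and 51.4, with Mylip overlapping Nr1h3 in WT M0 and in KO M0. In KO M2, Abca1 overlapped Nr1h2. Rxra averaged 32.1 in KO M2, 28.9 in KO M0, 40.9 in WT M2 and 38.9 in WT M0, the lowest of the 8 in both KO groups, though it overlapped its neighbour there.

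**Figure D4:**
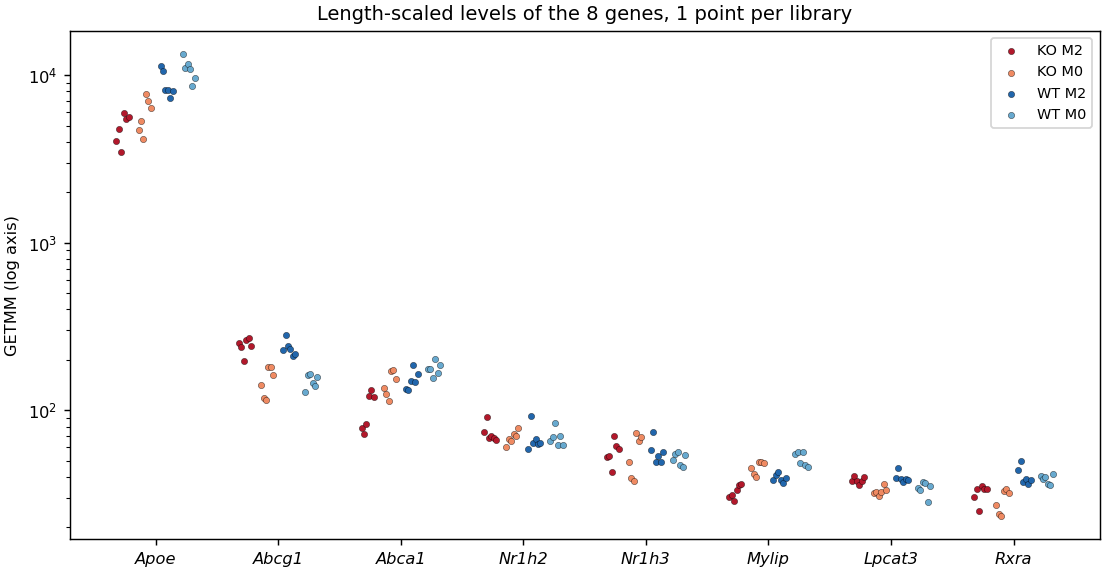
GETMM level of each of the 8 genes on a log axis, 1 point per library, with KO M2, KO M0, WT M2 and WT M0 side by side for each gene. Apoe lies above all others, and Abcg1 lies above Abca1 in the M2 groups.

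The knockout effect on Nr1h3 and Apoe differed between sets of libraries that were chosen after the values were seen. The comparison, of replicates 4 to 6 with replicates 1 to 3, followed the runs of library numbers in the labels. Its p-values are therefore not independent evidence of a difference. Nr1h3 in KO M0 had 74.0, 66.0 and 71.2 CPM in replicates 4 to 6, against 49.8, 39.6 and 38.0 CPM in the other 3. In WT M0 replicates 4 to 6 had 49.3, 47.3 and 55.3 CPM, against 52.5, 57.1 and 56.6 CPM in the other 3. The knockout effect on Nr1h3 without IL-4 was thus 0.49 in replicates 4 to 6 (adjusted p = 0.000802) and -0.36 in replicates 1 to 3 (adjusted p = 0.29), a difference of 0.86 on the log2 scale (SE 0.18, adjusted p = 0.0247) in a test that 1.81% of all genes passed. With IL-4 the effects were 0.27 (adjusted p = 0.0496) and -0.29 (adjusted p = 0.588), and the difference of 0.56 did not pass (adjusted p = 0.154).

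Apoe was lower in KO within each run of libraries but by unequal amounts. In KO M0 replicates 4 to 6 had 3875, 3444 and 3254 CPM, against 2359, 2648 and 2059.5 CPM in the other 3. The WT M0 levels were 5569.8, 4351 and 4880.4 CPM in replicates 4 to 6, against 6815, 5612 and 5745 CPM in the other 3. Its knockout effect without IL-4 was -0.48 in replicates 4 to 6 (adjusted p = 0.00213) and -1.34 in replicates 1 to 3 (adjusted p = 0.000316), with a difference of 0.88 (SE 0.18, adjusted p = 0.0241). With IL-4 it was -0.46 and -1.28, with a difference of 0.82 (SE 0.18, adjusted p = 0.0373) in a test that 0.781% of all genes passed. Without the 3 libraries numbered apart that difference was 0.92 and no longer passed (adjusted p = 0.0529). Abca1 had a knockout effect with IL-4 of -0.40 (adjusted p = 0.00834) in replicates 4 to 6 and -0.83 (adjusted p = 0.000619) in replicates 1 to 3, and the difference of 0.43 did not pass (adjusted p = 0.132). Rxra had -0.13 (adjusted p = 0.28) and -0.56 (adjusted p = 0.0364) with IL-4, and Mylip had -0.11 (adjusted p = 0.448) and -0.45 (adjusted p = 0.026). Without IL-4 the differences between the sets were 0.48 for Rxra (adjusted p = 0.105) and 0.31 for Mylip (adjusted p = 0.215), and both passed once the 3 libraries numbered apart were left out (0.49 with adjusted p = 0.0198, and 0.40 with adjusted p = 0.0391). Abcg1 passed as higher in KO in replicates 4 to 6, at 0.24 with IL-4 (adjusted p = 0.00998) and 0.23 without (adjusted p = 0.0162), and its values in replicates 1 to 3 were -0.13 and -0.27. Stromal marker sums in KO M0 were 12.7 to 15.5 CPM in replicates 4 to 6, against 11.7 to 33.5 CPM in the other 3, and what set the runs apart was not tested.

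**Figure D5:**
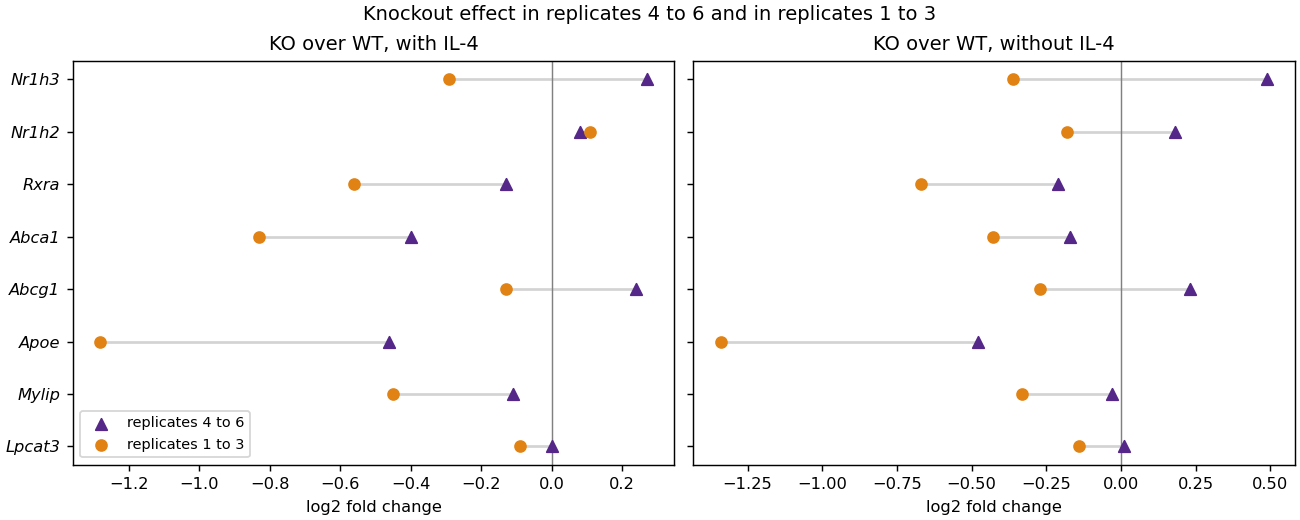
Knockout effect (log2 fold change, KO over WT) of each gene in replicates 4 to 6 (triangles) and replicates 1 to 3 (circles), with IL-4 on the left and without on the right. Apoe is below 0 in both sets of libraries, and Nr1h3 lies on opposite sides of 0.

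Over all genes tested, IL-4 raised 12.2% and lowered 11.4% in KO, and raised 8.49% and lowered 7.95% in WT. Knockout raised 1.51% and lowered 3.09% with IL-4, and raised 1.1% and lowered 3.42% without. Further genes of the pathway are given beside these shares, beginning with LXR targets in lipid synthesis and transport. Of 16 listed genes 14 were tested. IL-4 raised 3 and lowered 1 in each genotype, with list medians of 0.01 in KO and 0.12 in WT beside 0.00 and -0.02 over all genes. Scd2, a desaturase, rose by 1.02 on the log2 scale in KO and by 0.95 in WT, and Arl4c, a small GTPase gene that LXR induces, rose by 0.68 in KO and 0.59 in WT. Acaca, which makes the malonyl-CoA used for fatty acids, rose by 0.39 in KO and 0.45 in WT. Smpdl3a, a phosphodiesterase gene responsive to LXR in human macrophages, fell by 0.48 in KO and 0.41 in WT. Knockout lowered 4 of the 14 and raised none in either state, with list medians of -0.18 with IL-4 and -0.24 without, beside 0.01 and -0.01 over all genes.

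The 4 genes lowered by knockout were the same in both states: Scd2, Scd1, Fads1 and Smpdl3a. Scd2 had 117 ± 8.51 CPM in KO M2 and 58.0 ± 8.52 CPM in KO M0, against 225 ± 37.9 CPM in WT M2 and 116 ± 28.1 CPM in WT M0. It fell by 0.94 with IL-4 (adjusted p = 1.92e-05) and by 1.00 without (adjusted p = 8.7e-06). Scd1, its close relative, averaged 2.44 CPM in KO M2 and 1.61 CPM in KO M0 against 4.37 CPM in WT M2 and 3.06 CPM in WT M0, and fell by 0.84 (adjusted p = 0.0213) with IL-4 and by 0.92 (adjusted p = 0.0164) without. These falls lay beside the lower stromal marker sums as well, and the part of those markers was not tested. Reads of such relatives as Scd1 and Scd2 may be split between them by the counting. Fads1, a desaturase of polyunsaturated chains, fell by 0.39 and 0.29, and Smpdl3a by 0.27 and 0.20, with IL-4 and without.

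Of 6 other LXR-responsive macrophage genes, 1 rose and 2 fell with IL-4 in each genotype. Cd5l, a secreted survival factor, fell by 0.61 in KO and 0.58 in WT, Vegfa fell by 0.41 and 0.43, and Tgm2, a transglutaminase, rose by 0.36 and 0.24. Knockout lowered 2 with IL-4, and lowered 2 and raised 1 without. Mertk, a receptor for the uptake of dying cells, had 183 ± 42.1 CPM in KO M2 and 199.9 ± 35.8 CPM in KO M0, against 258 ± 20.4 CPM in WT M2 and 293 ± 45.3 CPM in WT M0. It fell by 0.49 with IL-4 (adjusted p = 0.0274) and by 0.55 without (adjusted p = 0.0122). Cd38, an NAD-consuming ectoenzyme, fell by 1.44 with IL-4 (adjusted p = 0.0184) and also passed without it (adjusted p = 0.0398). Its KO libraries held 1.83 to 3.61 CPM in M2 and 1.92 to 3.10 CPM in M0. WT libraries held 1.94 to 12.5 CPM in M2 and 1.77 to 9.81 CPM in M0. Ccr7, a chemokine receptor, rose by 1.59 without IL-4 (adjusted p = 0.0211), beside 0.99 with IL-4 (adjusted p = 0.262). Ccr7 was at most 3.06 CPM in any library.

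Among RXR and its other partners, 10 of 14 were tested, and Rxrg had 0 counts in every library. Rxrb averaged 22.6 CPM in KO M2 and 24.0 CPM in KO M0, against 21.9 CPM in WT M2 and 23.1 CPM in WT M0. Its knockout effects, 0.04 with IL-4 and 0.05 without, did not pass. IL-4 raised 3 and lowered 1 in KO, and raised 1 and lowered 1 in WT. Pparg, the receptor linked to alternative activation, had 145 ± 9.38 CPM in KO M2 against 84.3 ± 8.41 CPM in KO M0, and 119.9 ± 9.57 CPM in WT M2 against 81.7 ± 9.02 CPM in WT M0. It rose by 0.78 in KO and 0.55 in WT, and was higher in KO than in WT with IL-4 (0.27, SE 0.07, adjusted p = 0.0289, beside 0.05 without IL-4). Nr4a1, an immediate early receptor, fell by 1.39 in KO and 1.29 in WT, and was at most 3.20 CPM in any library. In KO, Thrb, a thyroid hormone receptor, also rose by 0.82, and Vdr, the vitamin D receptor, by 1.94, beside values of 0.54 and 0.52 in WT that did not pass. Thrb was at most 2.01 CPM and Vdr at most 1.32 CPM in any library. In knockout, Vdr fell by 1.41 with IL-4 and fell by 2.82 without. Of 16 coregulators 15 were tested, and 0 passed the knockout test in either state in edgeR. IL-4 raised Ppargc1b, a coactivator of mitochondrial genes, by 1.17 in KO and 1.07 in WT, and lowered Tbl1x, a corepressor subunit, by 0.34 and 0.27. It also lowered the corepressor gene Nrip1 in KO, by 0.36, beside -0.17 in WT (adjusted p = 0.326).

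Of 9 genes that make or clear LXR ligands, 4 were tested. Cyp27a1, which makes an oxysterol ligand, fell with IL-4 by 0.53 in each genotype. Cyp51, a step of sterol synthesis before desmosterol, rose with IL-4 by 0.47 in KO, beside 0.27 in WT (adjusted p = 0.0895). It fell by 0.47 in knockout without IL-4, and its value with IL-4 was -0.28 (adjusted p = 0.203). Ch25h, which makes another oxysterol, held at most 6 counts in any library and was not tested.

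Among genes of cholesterol uptake, trafficking and storage, 18 of 20 listed were tested. With IL-4, 8 rose and 2 fell in KO, and 8 rose and 0 fell in WT. The list medians were 0.12 in KO and 0.16 in WT, beside 0.00 and -0.02 over all genes. Npc1, which carries cholesterol out of lysosomes, rose by 0.47 in KO and 0.37 in WT, and Soat1, which esterifies cholesterol for storage, by 0.38 and 0.28. Srebf2, the master regulator of sterol synthesis, rose by 0.41 in KO and 0.33 in WT, and Npc2, the soluble partner of Npc1, by 0.30 and 0.32. In knockout, Vldlr, a lipoprotein receptor, fell by 0.92 with IL-4 (its value without was -0.59, adjusted p = 0.217). Vldlr was at most 2.03 CPM in any library. Lrp1, a scavenging receptor, rose by 0.30 without IL-4 (its value with IL-4 was -0.04). Of 7 tested relatives of Lpcat3 among 8 listed acyltransferase genes, IL-4 raised Agpat3 (by 1.00 in KO and 0.71 in WT) and Lpcat1 (by 0.34 and 0.31), and lowered Lpcat2 (by 0.76 and 1.00). For knockout, 0 of the 7 passed in edgeR in either state.

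The nearest profiles to each of the 8 genes were sought over the 24 libraries among 9545 genes, by the root mean square difference of centred log2 CPM. Apoe was nearest to Pianp (0.21), Pdgfc (0.23) and Mertk (0.24), and Abca1 to Megf9 (0.18), Phf11d (0.19) and Mertk (0.20). Abcg1 was nearest to Tpcn2, Hvcn1 and Daglb (0.11 each), and Mylip to Smpdl3a (0.09) and Gngt2 (0.11). Rxra was nearest to Timp2 (0.10), Slc46a3 (0.11) and Gpr157 (0.12), and Lpcat3 to Smurf1 (0.07), Hadha (0.08) and Ctsa (0.08). Nr1h3 was nearest to Hpcal1 (0.14), Unc93b1 (0.15) and Trafd1 (0.16), and Nr1h2 to Bag6 (0.08), Egln2 (0.08) and Ehmt2 (0.09). A gene that varies little has small differences from other such genes, so these values describe the 24 libraries and are not compared between the 8 genes.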

How the data were processed

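RNA of 24 macrophage samples was read from 1 end over 40 bp, per the labels' protocols. What the authors deposited are expected counts for each gene in whole numbers. According to the submitters' processing notes the tools were RSEM 1.3.0, Bowtie2 2.3.4.1, CASAVA 2.8.0 and edgeR, with the mouse build mm10. Their settings, the gene annotation and the strand are not given in the sources used here. A second deposited table holds GETMM values, a signal that accounts for gene length and for library size. Each equalled the expected count times 1 factor for the gene and 1 for the library, checked on 13047 genes.

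Genes were kept by edgeR's filterByExpr with a minimum count of 10 (12797 genes, 99.8% of counts) and scaled by TMM. The 4 groups entered 1 robust quasi-likelihood fit (glmQLFit and glmQLFTest, edgeR 4.0.16, R 4.3.3) with 5 contrasts and no covariate, and p-values were adjusted by Benjamini-Hochberg over all genes tested. Intervals are 95% confidence intervals. CPM use the scaled library sizes, and marker sums use total counts. The fit was tested on simulated counts. Total counts limit the precision of low genes, and no pair of libraries of 1 group agreed within sampling noise (lowest chi-square per degree of freedom 2.68).

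The 8 genes and all lists were chosen with earlier results of these data known. Named were the 8 genes, Mapkapk2, up to 4 genes of each pathway list that passed in a contrast (smallest adjusted p), and the 3 nearest profiles to each gene, leaving out predicted genes, out of those averaging 2 or more in log2 CPM. A few genes picked by this rule are left out here, and Rxrb, Rxrg and Ch25h were given outside it. The defining marker with 0 counts was Lep, an adipocyte gene. Alternatives were RLE size factors, DESeq2 1.42.0, other count filters, fits of 2 groups, a term for library numbers, leaving out the 3 libraries with numbers apart, limma 3.58.1 on log2(GETMM + 1) and log2(GETMM + 0.1), blocks for replicate or culture number, and leaving out each library. Fits of replicates 1 to 3 or 4 to 6 alone, and the test between these sets, were chosen after seeing the data.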

Additional observations from a re-analysis of the deposited data

Results flagged for a closer look

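In 5 of the 32 groups of 6 libraries examined, 1 library stood far from the other 5, where chance gives about 1 in 20. Nr1h2 had 61.2 CPM in WT M2 replicate 2, with 44.7 CPM the next highest, and 60.7 CPM in KO M2 replicate 2, with 48.8 CPM the next highest. Nr1h3 had 75.6 CPM in WT M2 replicate 2, above 59.5 CPM in the next library. Lpcat3 had 46.5 CPM in WT M2 replicate 2, above 40.4 CPM, and 29.4 CPM in WT M0 replicate 5, below 35.1 CPM. Of these 5 values, 4 came from libraries numbered apart from the rest, and the cause was not tested.

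The knockout effect differed between sets of libraries with different label numbers for 2 of the 8 genes, and for Rxra and Mylip as well without IL-4 when the 3 libraries numbered apart were left out. For replicates 4 to 6 minus replicates 1 to 3, the difference without IL-4 was 0.86 for Nr1h3 and 0.88 for Apoe on the log2 scale, and with IL-4 it was 0.82 for Apoe, each past an adjusted p of 0.05 in edgeR's quasi-likelihood test. The sets were chosen after the values were seen, so these p-values are not independent evidence of a difference.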

How the results depend on the processing

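Outside leaving out 1 library, 443 of 496 values of the 8 genes kept their direction and side of the threshold, 15 lost the threshold, 11 gained it and 27 turned direction. With 1 library left out, 531 of 576 kept both. Knockout calls of Apoe in both states and of Rxra without IL-4, and IL-4 calls of Abcg1 and Mylip in both genotypes, held under every alternative run. The cause of the changes listed next was not tested.

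Of the 8 genes, the number called for knockout with IL-4 was 2 with no count filter, 2 with only the 2 groups compared, 2 without the 3 libraries numbered apart, and 2 to 4 with 1 library left out. Over all genes these fits called 536, 455, 600 and 489 to 651, in the same order, beside 588 in the fit described above. In replicates 4 to 6 alone, 4 of the 8 genes were called for knockout with IL-4 and 4 without, with 2 higher and 2 lower each time. Among all genes, replicates 1 to 3 alone gave 857 calls for IL-4 in WT, 1472 for IL-4 in KO and 305 for knockout with IL-4. Replicates 4 to 6 alone gave 956 for knockout without IL-4, 1056 with IL-4 and 21 for the difference between the responses. A term for the library numbers gave 1044 without and 919 with IL-4. The difference between the responses had 1 call in DESeq2 and 3 in limma on log2(GETMM + 1). The test between replicate sets called 833 genes without and 25 with IL-4 once the 3 libraries numbered apart were left out.

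The labels do not say whether the numbers pair the samples, and the main fit used no pairing. Same-numbered KO and WT libraries correlated at -0.30 to 0.17 in M0 and -0.07 to 0.48 in M2. The number that an M0 and an M2 library share in the labels is called culture number here, though the labels do not say what it marks. Libraries that share it correlated at -0.04 to 0.26 in KO and 0.01 to 0.35 in WT. In KO 4 of 6, and in WT 2 of 6, correlated best with their own number. Correlations above 0.1 were found for 4 of the 6 pairs in each genotype. With replicate number as a block, 3 of the 8 genes were called for knockout without IL-4 and 4 with it, Abca1 without IL-4 among them (-0.32, adjusted p = 0.0404 in edgeR). Over all genes that block called 666 without IL-4 and 672 with it, beside 579 and 588 in the main fit. With culture number as a block, 5 of the 8 genes were called for IL-4 in each genotype. Over all genes it called 3446 in KO and 2622 in WT, beside 3024 and 2103 in the main fit. Apoe passed in edgeR (-0.24, adjusted p = 0.00266 in KO, and -0.30, adjusted p = 0.000687 in WT). Abca1 passed in WT (-0.23, adjusted p = 0.0202), and 2 genes of all passed the difference between the responses.

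Some values that turned direction passed the threshold in the new direction. In replicates 4 to 6 these were Nr1h3 for knockout with IL-4 (0.27, adjusted p = 0.0496) and Abcg1 for knockout without IL-4 (0.23, adjusted p = 0.0162). Values that turned direction were the following, all log2 fold changes. For IL-4 in KO, Nr1h3 was -0.01 with the number term and -0.12 in replicates 4 to 6, and Nr1h2 -0.09 there. For IL-4 in WT, Nr1h2 was 0.01 with no filter, and Rxra 0.00 without the 3 libraries apart and -0.01 in replicates 4 to 6. For knockout with IL-4, Nr1h3 was 0.00 by RLE, DESeq2 or no filter, 0.10 without the 3 libraries apart and 0.27 in replicates 4 to 6, and Abcg1 was -0.13 in replicates 1 to 3. For knockout without IL-4, Nr1h2 was 0.00 with no filter, 0.06 with the number term, 0.04 without the 3 libraries, 0.01 in limma at either pseudocount and 0.18 in replicates 4 to 6. There Abcg1 was 0.00 with no filter, 0.01 with the number term, 0.00 without the 3 libraries and 0.23 in replicates 4 to 6, Nr1h3 was -0.36 in replicates 1 to 3 and Lpcat3 0.01 in replicates 4 to 6. For the difference between the responses, Nr1h3 was 0.07 in replicates 1 to 3, and Nr1h2 was -0.09 and Lpcat3 -0.02 in replicates 4 to 6. With 1 library left out, IL-4 ranges were -0.05 to 0.13 (Nr1h3, KO), -0.13 to 0.04 (Nr1h2, WT) and 0.00 to 0.10 (Rxra, WT). Knockout ranges were -0.07 to 0.09 for Nr1h3 with IL-4, and -0.06 to 0.04 for Nr1h2 and -0.07 to 0.06 for Abcg1 without. The Apoe difference ranged from -0.04 to 0.14.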
